A study of Mus musculus with 2 samples.

Results

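Alpl, Enpp1, Ank, Phospho1, Slc20a1 and Slc20a2, 6 of the 32285 genes in the deposited tables, were taken by symbol as genes that handle pyrophosphate and phosphate in mineralizing tissue. Femoral bone cells came from 7-week-old male C57BL/6J mice that were either untreated or injected with calcitriol, the active hormone form of vitamin D, at 2.5 μg/kg in 3 injections, with femurs taken 24 h after the last one. Cells of 6 mice per group were pooled before capture into 1 droplet library of 3′ ends, so there were 2 libraries and no replicate library. The epiphyses had been cut off, the marrow spun out and CD45-positive cells depleted, and neither group carried a transgene or deletion. Because mouse, pool and treatment cannot be told apart, every interval given here is a 95% interval that covers counting error only, and no p-value was computed.

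Mineral forms in bone and calcified cartilage when phosphate is set free near matrix vesicles and collagen while pyrophosphate, a strong inhibitor of crystal growth, is removed. Enpp1 encodes the ectoenzyme that makes pyrophosphate from nucleotide triphosphates, and Ank encodes a membrane protein that moves pyrophosphate or its ATP source out of the cell. Alpl encodes tissue-nonspecific alkaline phosphatase, which splits pyrophosphate and releases phosphate, and is the classical marker of mineralizing osteoblasts and hypertrophic chondrocytes. Phospho1 encodes a phosphatase that releases phosphate from phospholipid head groups inside matrix vesicles. Slc20a1 and Slc20a2 encode the sodium-phosphate cotransporters PiT-1 and PiT-2, which take phosphate up into cells.

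The promoters of Enpp1, Ank and Alpl are shown because Enpp1 and Ank were higher and Alpl lower in the calcitriol library in osteocyte-like cells and in both osteoblast-like classes. Each stretch is the 250 bases before a RefSeq start on GRCm38.p6, read 5′ to 3′ on the gene's strand. Capitals mark AGGTCA or GGGTCA on either strand, the hexamers found as paired repeats in vitamin D response elements. Alpl has 2 annotated starts, and both are given.
Enpp1, chr10:24712160-24712409, minus strand: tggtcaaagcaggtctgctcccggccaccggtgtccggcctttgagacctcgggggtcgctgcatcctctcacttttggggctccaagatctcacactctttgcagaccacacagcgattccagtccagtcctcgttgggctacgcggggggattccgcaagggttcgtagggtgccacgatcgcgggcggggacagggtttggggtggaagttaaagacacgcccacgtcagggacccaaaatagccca
Ank, chr15:27466427-27466676, plus strand: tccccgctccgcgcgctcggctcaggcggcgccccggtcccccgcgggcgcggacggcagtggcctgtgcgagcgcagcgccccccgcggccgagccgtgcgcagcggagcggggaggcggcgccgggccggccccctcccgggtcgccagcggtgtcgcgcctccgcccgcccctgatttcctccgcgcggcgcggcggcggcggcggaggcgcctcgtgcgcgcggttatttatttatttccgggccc
Alpl outer start, chr4:137796385-137796634, minus strand: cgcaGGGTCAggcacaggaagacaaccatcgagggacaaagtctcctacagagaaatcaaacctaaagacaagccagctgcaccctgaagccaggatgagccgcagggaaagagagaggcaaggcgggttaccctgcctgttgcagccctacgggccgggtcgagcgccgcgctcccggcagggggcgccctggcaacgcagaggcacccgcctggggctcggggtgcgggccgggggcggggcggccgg
Alpl inner start, chr4:137766476-137766725, minus strand: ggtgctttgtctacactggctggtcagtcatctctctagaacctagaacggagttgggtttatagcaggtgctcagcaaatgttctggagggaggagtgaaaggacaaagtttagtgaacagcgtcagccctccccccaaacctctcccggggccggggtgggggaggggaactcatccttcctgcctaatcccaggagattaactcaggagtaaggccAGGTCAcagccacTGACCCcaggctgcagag

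Neither hexamer occurred in these windows of Enpp1 and Ank. The outer start of Alpl held GGGTCA at -246, and its inner start held AGGTCA at -31 and TGACCC, the reverse complement of GGGTCA, at -18, counted back from the start. Of all 32851 promoter windows searched, 14.0% held AGGTCA and 11.6% held GGGTCA on either strand, and 23.8% held at least 1 of them. The direct repeat with a gap of 3 occurred in 0.0396% of all windows and in none of the members. For the other members, Slc20a1 held 1 hexamer before each of its starts and Phospho1 held none. Slc20a2 had no entry in the promoter table. These are matches of letters in short windows, not mapped binding sites.

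The untreated library held 6076 barcodes and 70266983 UMIs and the calcitriol library 4562 barcodes and 60392557 UMIs. After the filters 4437 and 3693 cells were kept, with 10988 and 12258 UMIs in the median cell. Haemoglobin genes took 41.2% of all UMIs in the untreated library and 10.6% in the calcitriol library, and 2 barcodes among the kept cells occurred in both. Cells were grouped by clustering the integrated libraries again and naming clusters from marker lists that held none of the 6 genes. Alpl, Enpp1, Ank and Slc20a1 were among the 2000 variable genes that formed the clusters, so their levels across classes are a description.

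Over the kept cells Alpl had 12387 UMIs in the untreated and 18423 in the calcitriol library, Enpp1 3380 and 8463, Ank 6436 and 16213, and Slc20a1 5776 and 13822. Slc20a2 had 587 and 907 UMIs, and Phospho1 only 21 and 16. Levels are given below as CPM, a gene's UMIs per 1000000 UMIs summed over the cells of a class in 1 library, and compare 1 gene across classes, never different genes. The plot of levels by class shows that Alpl, Enpp1 and Ank were highest in cells of bone or cartilage.

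**Figure D1:**
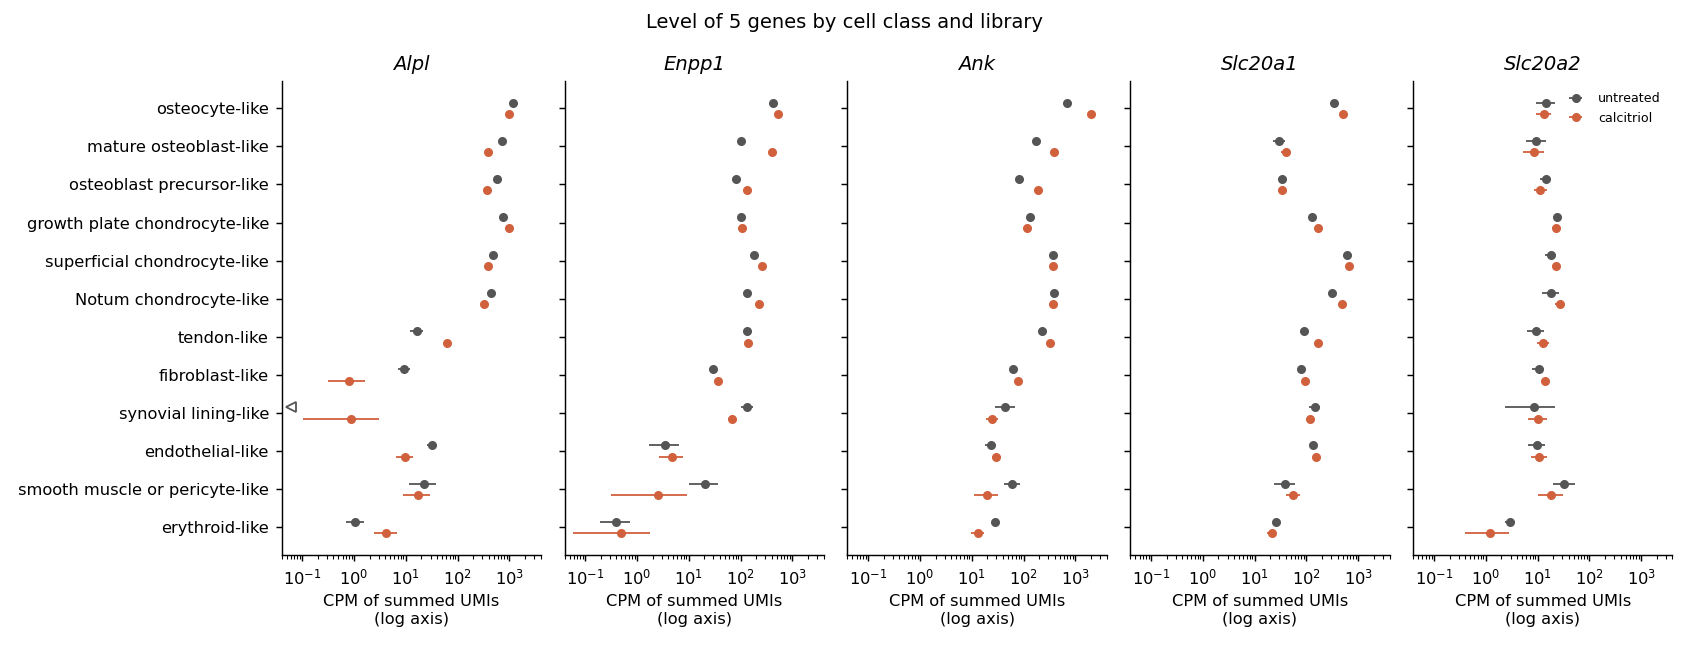
Level of Alpl, Enpp1, Ank, Slc20a1 and Slc20a2 in CPM of summed UMIs on a log axis (x) in 12 cell classes (y), with 1 point per library and bars for the 95% Poisson interval. Grey is untreated, orange is calcitriol, and the open triangle at the left edge marks 0 UMIs. Alpl ranges from 1185 CPM in untreated osteocyte-like cells, a mixed class, to 0 UMIs in untreated synovial lining-like cells. Slc20a2 runs from 8.51 to 32.9 CPM outside the erythroid-like cells.

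Alpl was highest in bone cells and cartilage. In the untreated library its level was 1185 CPM in osteocyte-like cells, 740 CPM in growth plate chondrocyte-like cells, 731 CPM in mature osteoblast-like cells and 567 CPM in osteoblast precursor-like cells. The osteocyte-like class was mixed, and its finer cluster led by Mepe, Dmp1 and Phex had less Alpl than the class in both libraries, as given below. Superficial articular chondrocyte-like cells had 483 CPM and the Notum- and Chil1-led chondrocyte-like cluster 443 CPM. All other named classes lay at 32.1 CPM or lower, with erythroid-like cells at 1.07 CPM and no UMI in 25 synovial lining-like cells, which allows up to 7.85 CPM. Growth plate and mature osteoblast-like cells, and the 2 neighbours below the precursors, had overlapping intervals. In the calcitriol library the growth plate cells, at 997 CPM, and the osteocyte-like cells, at 962 CPM, overlapped at the top, and mature osteoblast-like, superficial and precursor-like cells overlapped at 387, 383 and 372 CPM.

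Enpp1 and Ank were highest in osteocyte-like cells, a mixed class, in both libraries. Enpp1 reached 422 and 522 CPM there (untreated and calcitriol) and 182 and 256 CPM in superficial chondrocyte-like cells, against 3.48 and 4.76 CPM in endothelial-like and 0.396 and 0.488 CPM in erythroid-like cells. Ank reached 688 and 2019 CPM in osteocyte-like cells and stayed between 367 and 387 CPM in the superficial and the Notum-led chondrocyte-like cells of both libraries. Ank was itself among the 10 leading genes of the osteocyte-like cluster. In the untreated library both larger finer clusters of this class had less Enpp1 than the class, as given below. In the calcitriol library both had more. Of the 97 untreated osteocyte-like cells, 10 held at least as many Enpp1 UMIs as all the others together. The untreated ranking of Enpp1 thus holds for the mixed class. In the untreated library tendon-like cells had 135 CPM of Enpp1 and 224 CPM of Ank. Both values lay above those of mature osteoblast-like cells, at 103 and 177 CPM. In the calcitriol library they lay below, at 137 and 321 CPM against 410 and 395 CPM. Synovial lining-like cells had 134 and 67.2 CPM of Enpp1. In erythroid-like cells, where Alpl was at 1.07 and 4.15 CPM, Ank was at 28.8 and 12.9 CPM, a level near that of endothelial-like cells at 23.7 and 29.9 CPM.

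In mature osteoblast-like cells (109 untreated, 111 calcitriol) the pyrophosphate-raising genes were higher and the pyrophosphatase gene was lower in the calcitriol library. Enpp1 was at 103 CPM (90.5 to 118) untreated and 410 CPM (385 to 437) with calcitriol, a log2 ratio of 1.99 (1.78 to 2.20). Ank was at 177 CPM (160 to 195) and 395 CPM (370 to 421), a log2 ratio of 1.16 (0.99 to 1.33). Alpl was at 731 CPM (696 to 768) and 387 CPM (362 to 413), a log2 ratio of -0.92 (-1.04 to -0.80), which is just short of 2-fold. None of these pairs of intervals overlapped. Of the 4 members with at least 50 UMIs in the class, Enpp1 and Ank were at least 2-fold higher, beside 2.61% of all 6662 genes measured there, and none was 2-fold lower, beside 2.48%.

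The difference in Enpp1 and Alpl extended over many mature osteoblast-like cells. The median cell had 36.0 CPM of Enpp1 untreated and 158 CPM with calcitriol, and 39 of the 111 calcitriol cells exceeded the untreated 90th percentile of 325 CPM. For Alpl the median cell had 631 and 129 CPM. When each cell was thinned to 2000 UMIs, cells with an Enpp1 UMI made up 17.6% (10.9 to 26.1) and 41.7% (32.2 to 51.6), and cells with an Alpl UMI 63.0% (53.1 to 72.1) and 37.0% (27.9 to 46.9). At the same depth erythroid-like cells of the untreated library, whose median cell held 10422 UMIs against 17519 in this class, had an Enpp1 UMI in 0.0452% (0.00115 to 0.252) of cells and an Alpl UMI in 0.271% (0.0997 to 0.590).

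Ank behaved differently in its thinned shares over the same cells. Its thinned shares were 14.8% (8.71 to 22.9) and 18.5% (11.7 to 27.1), which overlapped. In the calcitriol library 197 of its 919 UMIs lay in 1 cell and 6 of the 111 cells held at least 50% of them. The untreated library was similarly concentrated, with at least 50% of its Ank UMIs in 7 of 109 cells. Enpp1 was also concentrated, with at least 50% of its UMIs in 8 of 109 untreated and 11 of 111 calcitriol cells. The median cell nevertheless had 54.0 CPM of Ank untreated and 144 CPM with calcitriol, and 29 of the 111 calcitriol cells lay above the untreated 90th percentile of Ank. The percentile plot places the 2 libraries apart at each of the upper percentiles.

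**Figure D2:**
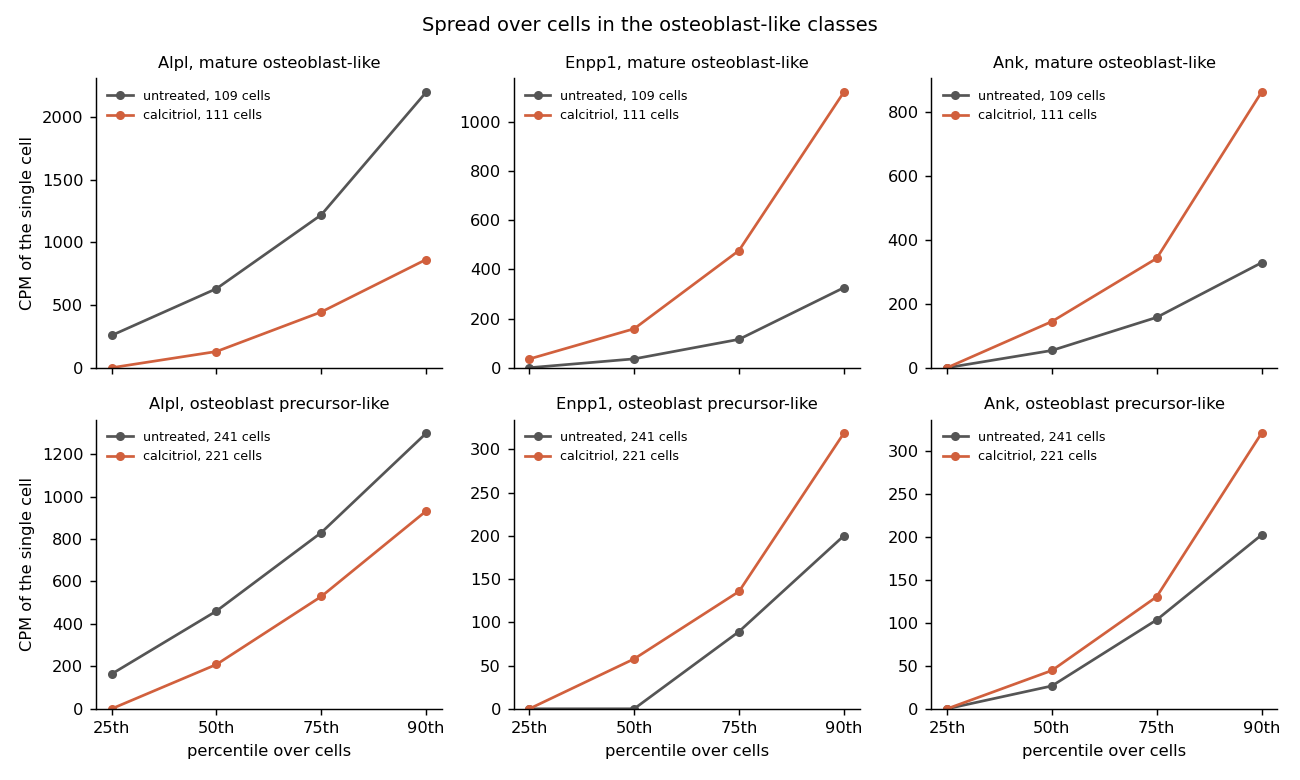
Percentiles over single cells (x) of the cells' own CPM (y) for Alpl, Enpp1 and Ank in mature osteoblast-like cells (upper row) and osteoblast precursor-like cells (lower row), grey for untreated and orange for calcitriol, with 1 line per library. In the upper row the Alpl median is 631 and 129 CPM and the Enpp1 median 36.0 and 158 CPM.

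Osteoblast precursor-like cells, named from Postn and other precursor markers (241 untreated, 221 calcitriol), had the same directions. Ank was at 81.0 CPM (72.8 to 89.8) and 193 CPM (180 to 206), a log2 ratio of 1.25 (1.07 to 1.44). It was the only one of 5 measured members past 2-fold in the higher direction, beside 3.42% of 8891 genes, and none was past it in the lower direction, beside 3.05%. The thinned shares of cells with an Ank UMI were nearly equal, 15.0% (10.7 to 20.2) and 15.9% (11.3 to 21.4), and the cells that held at least 50% of the UMIs numbered 23 in the untreated and 8 in the calcitriol library. Enpp1 was at 82.6 and 134 CPM, a log2 ratio of 0.70 (0.50 to 0.89). Alpl was at 567 and 372 CPM, a log2 ratio of -0.61 (-0.70 to -0.52), and its thinned shares were 55.4% (48.9 to 61.8) and 39.1% (32.6 to 45.9).

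Markers of osteoblast stage differed between the libraries in the same classes. The summed level of the precursor markers in precursor-like cells was 17206 and 7749 CPM, and that of the mature markers in mature cells 52655 and 28581 CPM. Osteocyte markers summed to 756 and 1662 CPM in mature osteoblast-like cells, and erythroid markers to 13524 and 230 CPM. Whether a shift of stage between the libraries had a part in the 3 differences was not tested. Mepe, an osteocyte gene, had UMIs in 2 untreated and 9 calcitriol cells of the mature class. Without those cells Enpp1 was at 104 and 419 CPM, Ank at 178 and 338 CPM and Alpl at 744 and 383 CPM. These intervals did not overlap either, but Ank was then short of 2-fold.

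In osteocyte-like cells (97 untreated, 216 calcitriol) Ank had the largest ratio of summed UMIs among the measured members. Its level was 688 CPM (648 to 730) untreated and 2019 CPM (1968 to 2070) with calcitriol, a log2 ratio of 1.55 (1.46 to 1.65). Enpp1 was at 422 and 522 CPM, a log2 ratio of 0.31 (0.18 to 0.44), and Slc20a1 at 336 and 514 CPM, a log2 ratio of 0.61 (0.47 to 0.76). Alpl was at 1185 and 962 CPM, a log2 ratio of -0.30 (-0.39 to -0.22). Ank was the only one of 5 measured members past 2-fold, beside 4.85% of 6476 genes that were at least 2-fold higher. The ratio of Ank depended on how cells were weighted, since it was 0.91 (0.69 to 1.15) with every cell thinned to 2000 UMIs and 1.00 for the mean of the cells' own CPM. The median cell had 467 CPM of Ank untreated and 954 CPM with calcitriol, but 813 and 168 CPM of Alpl. By the median cell Alpl thus differed more than Ank.

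This cluster was mixed, and its mixture differed between the libraries. Cartilage markers summed to 13345 CPM untreated and 6059 CPM with calcitriol, hypertrophic markers to 9787 and 1727 CPM, and osteocyte markers to 2601 and 6014 CPM. Haemoglobin genes took 3.71% and 0.761% of its UMIs. At a finer resolution of 1.2 its 313 cells went to 3 main clusters: 92 cells to a cluster led by Mepe, Dmp1 and Phex, 176 to an unnamed cluster led by Tnfrsf11b, Spp1 and Irx5, and 44 to a Col10a1-led hypertrophic cluster. The members' values in these finer clusters are therefore given separately.

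Alpl and Ank were placed oppositely in the 2 larger of them. Both genes were among the 2000 variable genes that formed these clusters. The placement and the ratios within the clusters are therefore not independent of the genes' own levels. In the Mepe-, Dmp1- and Phex-led cluster (24 untreated, 68 calcitriol cells) Alpl was at 339 CPM from 77 UMIs in 7 of 24 cells in the untreated library and at 6.86 CPM from 6 UMIs in 2 of 68 cells in the calcitriol library, a log2 ratio of -5.63 (-7.12 to -4.44). Ank was at 1243 CPM (1102 to 1396) and 4583 CPM (4442 to 4727), a log2 ratio of 1.88 (1.71 to 2.06). Enpp1 was at 238 and 547 CPM, a log2 ratio of 1.2 (0.79 to 1.63), whereas Slc20a1, at 366 and 416 CPM, had overlapping intervals. With Enpp1 and Ank higher and Alpl lower, 2 and 1 of 4 measured members were past 2-fold, beside 7.06% of 2591 genes higher and 6.1% lower. Enpp1 and Alpl rest here on 54 and 77 UMIs in the untreated library.

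The Tnfrsf11b-, Spp1- and Irx5-led cluster (54 untreated, 122 calcitriol cells), of which Alpl is itself a leading gene, had 2053 CPM of Alpl untreated and 1581 CPM with calcitriol. The log2 ratio was -0.38 (-0.47 to -0.29). Ank was at 578 and 885 CPM, a log2 ratio of 0.62 (0.46 to 0.77), and Enpp1 at 370 and 583 CPM, a log2 ratio of 0.66 (0.47 to 0.85). None of 4 measured members reached 2-fold there, beside 5.57% of 4399 genes higher and 3.39% lower. The bar plot of the finer clusters shows Alpl nearly missing from the calcitriol cells of the first cluster and Ank concentrated in them.

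**Figure D3:**
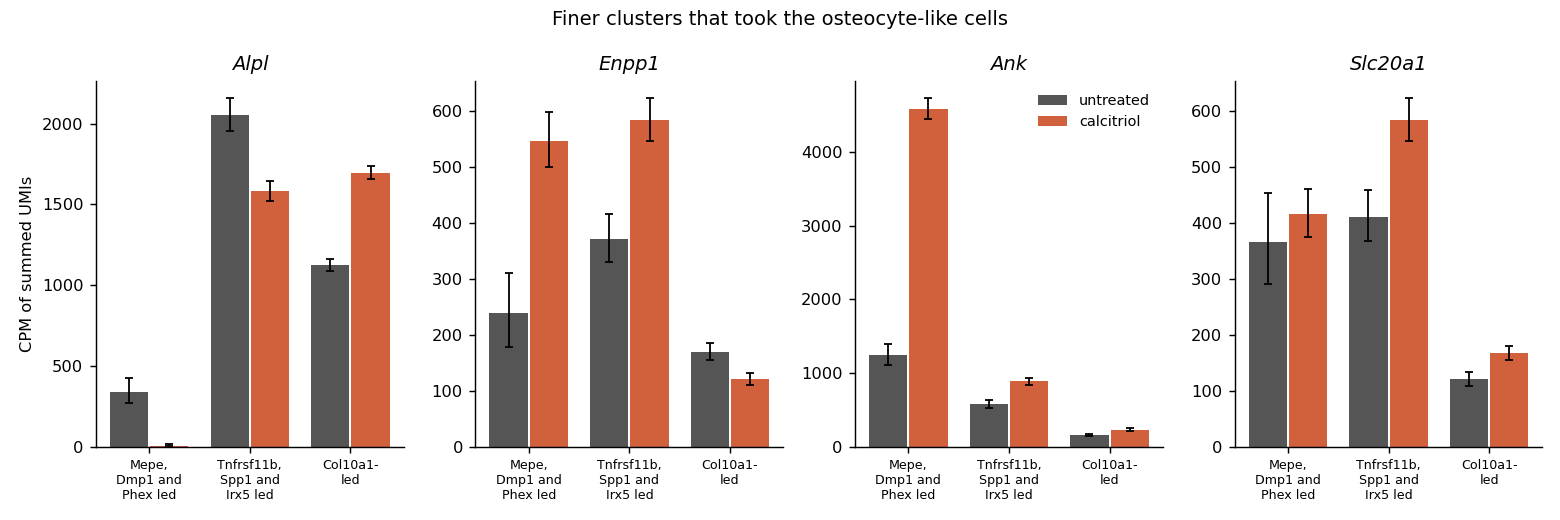
CPM of summed UMIs (y) of Alpl, Enpp1, Ank and Slc20a1 in the 3 finer clusters (x) that took most osteocyte-like cells, grey for untreated and orange for calcitriol, with 95% Poisson intervals. In the Mepe-, Dmp1- and Phex-led cluster Alpl is at 339 and 6.86 CPM and Ank at 1243 and 4583 CPM.

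Sorting the osteocyte-like cells by UMIs of Dmp1, Mepe and Phex, 3 genes that mark osteocytes, gave the same directions for Alpl and Ank but not for Enpp1. Cells with UMIs of 2 or 3 of these genes (34 untreated, 79 calcitriol) had Alpl at 588 and 159 CPM and Ank at 1008 and 3921 CPM. Cells with none of them (30 and 92) had Alpl at 1809 and 1539 CPM and Ank at 355 and 787 CPM. Enpp1 was at 568 and 517 CPM in the first set and at 222 and 547 CPM in the second. Its intervals in the first set, 508 to 632 and 476 to 561 CPM, overlapped. Col10a1, the collagen of hypertrophic cartilage, was at 17169 CPM in untreated cells of the first set and at 1010 CPM in calcitriol cells of it.

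Fgf23, the phosphate-lowering hormone gene of osteocytes, had UMIs in 8 osteocyte-like cells, which all came from the calcitriol library. These cells held no Alpl UMI, which allows up to 18.02 CPM. Every one of them held Ank, with 48 to 503 UMIs per cell and 6946 CPM (6589 to 7316) in all, against 3252 CPM (3137 to 3370) in the 71 other calcitriol cells with UMIs of 2 or 3 of Dmp1, Mepe and Phex. Those 71 cells had Alpl at 194 CPM, from 180 UMIs in 13 of them, and the others had none. Enpp1 had UMIs in all 8 cells and was at 528 CPM (433 to 637) against 515 CPM (470 to 563), which overlap. Of its 108 UMIs in the 8 cells, 59 lay in 1 cell and 31 in another, and each other cell had 1 to 5. The summed level of Enpp1 thus rests mostly on 2 cells. The 8 cells were deeper on average than the 71, and their counts of cells with a UMI were not matched for depth. Low Alpl with high Ank was not particular to them. In the 68 calcitriol cells of the Mepe-, Dmp1- and Phex-led cluster the upper quartile of Alpl began at 0 CPM. The median cell there had 3303 CPM of Ank. Cells with an Fgf23 UMI were not taken out of that cluster.

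Cartilage showed smaller ratios, and no member was past 2-fold in any of the 3 chondrocyte-like classes. The background shares there were 3.01% higher and 4.03% lower in growth plate cells, 3.2% and 3.5% in superficial cells, and 5.04% and 4.17% in the Notum-led cluster. Alpl went in opposite directions by type. It was at 740 and 997 CPM in growth plate chondrocyte-like cells (140 untreated, 238 calcitriol), a log2 ratio of 0.43 (0.37 to 0.49), but at 483 and 383 CPM in superficial cells (217 and 592), a log2 ratio of -0.34 (-0.42 to -0.25). In the Notum-led cluster (87 and 224) it was at 443 and 329 CPM, a log2 ratio of -0.43 (-0.56 to -0.29). Taken over all chondrocyte-like cells Alpl was at 602 and 596 CPM.

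Alpl was uneven among growth plate cells. In the Col10a1-led finer cluster (73 untreated, 114 calcitriol cells), which also took 44 cells of the osteocyte-like class, Alpl was at 1124 and 1695 CPM, a log2 ratio of 0.59 (0.53 to 0.65). In the Serpina1a-led growth plate cluster (85 and 150 cells) it was at 172 and 183 CPM, with overlapping intervals. Over the whole growth plate class the median cell went the other way, from 270 to 153 CPM, and the thinned share of cells with an Alpl UMI, 52.1% (43.5 to 60.7) and 46.8% (40.3 to 53.4), overlapped. Its upper quartile began at 1050 and 1345 CPM. Alpl in superficial cells was also uneven, with 658 and 556 CPM in a Msmp- and Cytl1-led finer cluster against 29.9 and 28.6 CPM in a Cilp- and Inhba-led one.

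Enpp1 was higher with calcitriol in superficial and Notum-led cells and nearly equal in the growth plate class. In superficial cells it was at 182 and 256 CPM, a log2 ratio of 0.49 (0.36 to 0.62), and in the Notum-led cluster at 134 and 227 CPM, a log2 ratio of 0.76 (0.54 to 0.98). In growth plate cells it was at 103 and 107 CPM, a log2 ratio of 0.06 (-0.10 to 0.23). Within the Col10a1-led cluster the summed level of Enpp1 was 170 and 121 CPM, but its median cell had 61.1 and 92.5 CPM, and 7 of the 73 untreated cells held at least 50% of the untreated UMIs. Ank differed little in cartilage, with log2 ratios of -0.02 (-0.12 to 0.07) in superficial, -0.06 (-0.19 to 0.08) in Notum-led and -0.16 (-0.30 to -0.01) in growth plate cells.

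**Figure D4:**
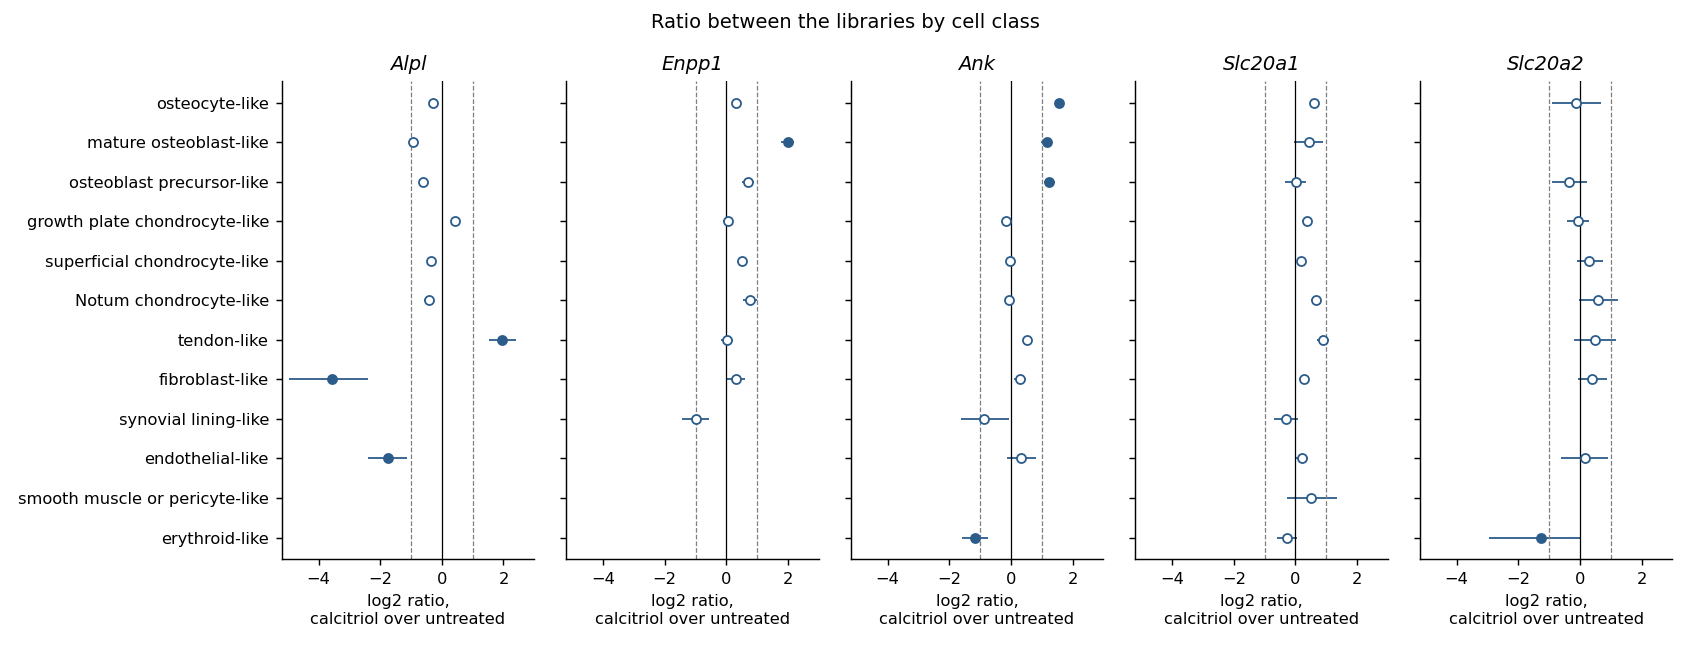
Log2 ratio of calcitriol over untreated (x) for 5 genes in 12 cell classes (y), with 95% counting intervals, drawn only where the gene had at least 50 UMIs in the class over both libraries. Filled points are at least 2-fold (dashed lines at -1 and 1), and the largest shift to the right in the Enpp1 panel is 1.99 in mature osteoblast-like cells.

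Outside bone and cartilage Alpl was low, and its ratios rested on few UMIs. In fibroblast-like cells (436 and 664) it had 50 UMIs, or 9.33 CPM, in the untreated and 7 UMIs, or 0.792 CPM, in the calcitriol library, but 34 of the 50 lay in 1 cell. Its log2 ratio of -3.56 (-4.94 to -2.41) was the only one past 2-fold of 5 measured members, beside 3.12% of 10125 genes lower and 2.93% higher. In tendon-like cells (257 and 349) it had 53 UMIs at 16.3 CPM and 271 UMIs at 63.1 CPM, of which 116 lay in 1 cell. The log2 ratio was 1.95 (1.53 to 2.41), beside 3.7% of 8602 genes at least 2-fold higher and 4.85% lower, and -0.93 (-1.23 to -0.63) when clusters past any single quality limit were left out. The summed mature osteoblast markers in tendon-like cells were 337 and 1059 CPM. Enpp1, at 135 and 137 CPM, had nearly the same level in both tendon libraries, and Ank was at 224 and 321 CPM, a log2 ratio of 0.52 (0.39 to 0.65).

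In vessels most Alpl UMIs lay in a cluster led by Fabp4. Endothelial-like cells (267 and 308) had 92 UMIs at 32.1 CPM in the untreated and 30 UMIs at 9.53 CPM in the calcitriol library, a log2 ratio of -1.75 (-2.40 to -1.14). Alpl was the only one of 4 measured members past 2-fold, beside 2.52% of 8542 genes lower and 1.87% higher. At the finer resolution 89 and 24 of these UMIs lay in a cluster led by Fabp4, Flt1 and Gpihbp1, at 76.2 and 16.7 CPM in 28 of 97 and 12 of 120 cells. No untreated cell held more than 16 UMIs, but the UMIs were concentrated in few cells. Of the 267 untreated endothelial-like cells, 5 held at least as many Alpl UMIs as all the others together. In the calcitriol library 6 of the 308 cells did so. At that resolution the Fabp4-led cluster was not in the named endothelial-like class, whose ratio on the remaining 9 UMIs was 0.98 (-1.24 to 3.61). Precursor markers summed to 343 and 89.6 CPM in endothelial-like cells and mature osteoblast markers to 62.0 and 98.5 CPM, and their part was not tested. Smooth muscle or pericyte-like cells had 12 and 13 Alpl UMIs, at 22.0 and 16.9 CPM with overlapping intervals.

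Enpp1 and Ank had other directions in some soft tissues than in bone. In synovial lining-like cells (25 and 94) Enpp1 was at 134 CPM (103 to 171) and 67.2 CPM (57.1 to 78.5), a log2 ratio of -0.996 (-1.43 to -0.55), where the median over all 5257 genes measured was -0.28. Its median cell there had 47.1 and 42.9 CPM, and 13 of the 63 untreated UMIs lay in 1 cell. Ank was at 44.7 and 24.4 CPM in these cells, from 21 and 57 UMIs, a log2 ratio of -0.87 (-1.62 to -0.076). Smooth muscle or pericyte-like cells had 33 and 15 UMIs of Ank, at 60.4 and 19.5 CPM, and 11 and 2 UMIs of Enpp1. In fibroblast-like cells Enpp1 was at 29.5 and 36.5 CPM, a log2 ratio of 0.31 (0.027 to 0.59), and Ank at 63.1 and 77.8 CPM, a log2 ratio of 0.30 (0.11 to 0.49). Schwann-like cells held 3 and 4 UMIs of Enpp1 and 8 and 9 of Ank.

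Slc20a1 had a pattern of its own, with superficial articular chondrocyte-like cells highest at 594 CPM (569 to 620) and 669 CPM (652 to 685). Osteoblasts, which need phosphate for mineral, had little of it, at 29.7 and 40.0 CPM in mature and 33.1 and 33.2 CPM in precursor-like cells. Endothelial-like cells had more, at 135 and 155 CPM. Its ratio was at or above 0 on the log2 scale in most classes and past 2-fold in none of the bone, cartilage or vessel classes. The higher ratios were 0.89 (0.70 to 1.10) in tendon-like cells at 88.8 and 165 CPM, 0.66 (0.52 to 0.81) in the Notum-led cluster at 307 and 486 CPM, and 0.61 in osteocyte-like cells. In both osteoblast-like classes the intervals of the ratio included 0.

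Slc20a2 was counted at a low level. Apart from erythroid-like cells and the small Schwann- and skeletal muscle-like classes it lay between 8.51 CPM in untreated synovial lining-like cells and 32.9 CPM in untreated smooth muscle or pericyte-like cells. The growth plate cells had 23.6 and 22.5 CPM and the osteocyte-like cells 14.5 and 13.3 CPM. Mature osteoblast-like cells had 9.45 and 8.60 CPM, with intervals apart from those of the growth plate cells in both libraries. Every interval of its ratio in bone, cartilage, tendon, fibroblast and endothelial classes included 0. In erythroid-like cells it was at 2.97 CPM from 75 UMIs and 1.22 CPM from 5 UMIs, a log2 ratio of -1.28 (-2.95 to 0.0048).

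Phospho1 had too few UMIs to be compared between classes or libraries. Its 37 UMIs in the kept cells were spread over several classes, and its highest class level was 2.15 CPM, from 5 UMIs in calcitriol mature osteoblast-like cells. The untreated cells of that class had 3 UMIs, and the growth plate cells had 4 and 7. Of the 37 UMIs 12 lay in erythroid-like cells. Phospho1 lies at chr11:95824499-95832140 on the plus strand of GRCm38, and 89.6% of its 2029 exonic bases are also exon of Zfp652 on the same strand in the GENCODE annotation. With such an annotation reads from that stretch cannot be given to 1 gene, and the one used for counting is not given in the sources used here, so the low count does not show that the gene is silent. The other members shared at most 1.80% of their exonic bases with a gene on the same strand, which was Ank, at chr15:27466677-27594909. Alpl, at chr4:137741733-137796384, and Enpp1, at chr10:24637914-24712159, shared none.

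Other genes of the same processes were followed through 31 genes in 5 lists. Of these, Dmp1, Mepe and Phex were also osteocyte markers and Ibsp and Bglap mature osteoblast markers in the lists that named the classes. Counts that include them are thus not independent of the naming. In osteoblast-like cells of both stages 22 were measured, 8 were at least 2-fold higher in the calcitriol library and 3 lower, beside 3.41% and 2.6% of 9842 genes. Their median log2 ratio was -0.00021 and that of all genes -0.09. Nt5e, the ectoenzyme that makes adenosine from the AMP left by pyrophosphate formation, was at 54.2 and 146 CPM, a log2 ratio of 1.43 (1.25 to 1.61). Enpp2, an ENPP relative that makes lysophosphatidic acid, was at 22.4 and 51.8 CPM. Among mineral-binding proteins Spp1 had a log2 ratio of 2.25, the mineralization inhibitor Mgp 2.08, Ibsp 1.10 and Phex 1.08. Dmp1 had 1.04, and Mepe was counted with 4 UMIs in the untreated and 494 in the calcitriol library, where they lay in 9 mature and 2 precursor-like cells. Several of these genes were also at least 2-fold higher outside bone and cartilage. They were Spp1, Ibsp and Mgp of 19 listed genes in endothelial-like cells, beside 1.87% of all genes. In fibroblast-like cells they were Spp1, Dmp1 and Mepe of 20, beside 2.93%, and in tendon-like cells Spp1 and Ibsp of 15, beside 3.7%. In synovial lining-like cells only Enpp2 of 14 was higher, beside 3.77%.

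The 3 lower genes in osteoblast-like cells were Bglap, Ppa1 and Anxa2. Bglap, the gene of osteocalcin, was at 9509 and 3439 CPM, a log2 ratio of -1.47 (-1.49 to -1.44). Ppa1, the cytosolic inorganic pyrophosphatase, was at 131 and 58.2 CPM, a log2 ratio of -1.17 (-1.35 to -0.996). Anxa2 was at 935 and 438 CPM, and the other annexins of matrix vesicles, Anxa5 and Anxa6, had log2 ratios of -0.83 and -0.89. Lower annexins were not particular to osteoblast-like cells. All of Anxa2, Anxa5 and Anxa6 were at least 2-fold lower in tendon-like cells, beside 4.85% of all genes. Anxa2 and Anxa5 were so in fibroblast-like cells, beside 3.12%, and Anxa2 and Anxa6 in synovial lining-like cells, beside 6.79%. No annexin was past 2-fold in endothelial-like cells, beside 2.52%. No phosphate carrier was past 2-fold, with Xpr1, the phosphate exporter, at 32.5 and 32.7 CPM and the mitochondrial carrier Slc25a3 at 269 and 267 CPM.

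In osteocyte-like cells 19 of the 31 genes were measured, with 2 higher and 3 lower beside 4.85% and 2.87% of all genes. Both higher genes are osteocyte markers used to name the class, whose summed osteocyte markers were also higher with calcitriol. Mepe was at 330 and 1534 CPM and Dmp1 at 1616 and 3472 CPM. Smpd3, the sphingomyelinase needed for skeletal mineralization, was at 138 and 33.5 CPM, a log2 ratio of -2.04 (-2.39 to -1.69), Bglap at 2901 and 1254 CPM and Anxa6 at 48.7 and 24.2 CPM. The finer clusters differed from the class. Of 14 in the Mepe-, Dmp1- and Phex-led cluster, Ppa1, Spp1, Mepe and Mgp were higher and Nt5e and Bglap lower, beside 7.06% and 6.1%. Of 16 in the Tnfrsf11b-, Spp1- and Irx5-led cluster, Phex and Enpp2 were higher and Smpd3, Dmp1 and Bglap lower, beside 5.57% and 3.39%. Dmp1 was thus at least 2-fold higher in neither. In chondrocyte-like cells 22 were measured, with Spp1 (1.13), Enpp4 (1.38) and Enpp5 (1.02) higher and Smpd3 (-1.77) and Bglap (-1.46) lower on the log2 scale, beside 3.43% and 4.27% of 11500 genes. Enpp4 rested on 14 and 78 UMIs. The chondrocyte-like types differed. In growth plate cells 5 of 20 were higher (Spp1, Ibsp, Dmp1, Mepe and Mgp) and 2 lower (Smpd3 and Bglap), beside 3.01% and 4.03%. In superficial cells Phex and Enpp4 of 21 were higher and Smpd3, Dmp1 and Bglap lower, beside 3.2% and 3.5%. In the Notum-led cluster none of 15 was higher and Ppa1, Smpd3 and Bglap were lower, beside 5.04% and 4.17%. Slc34a1, Slc34a3, Alpi, Akp3 and Alppl2 had 0 UMIs in every barcode of both libraries.

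**Figure D5:**
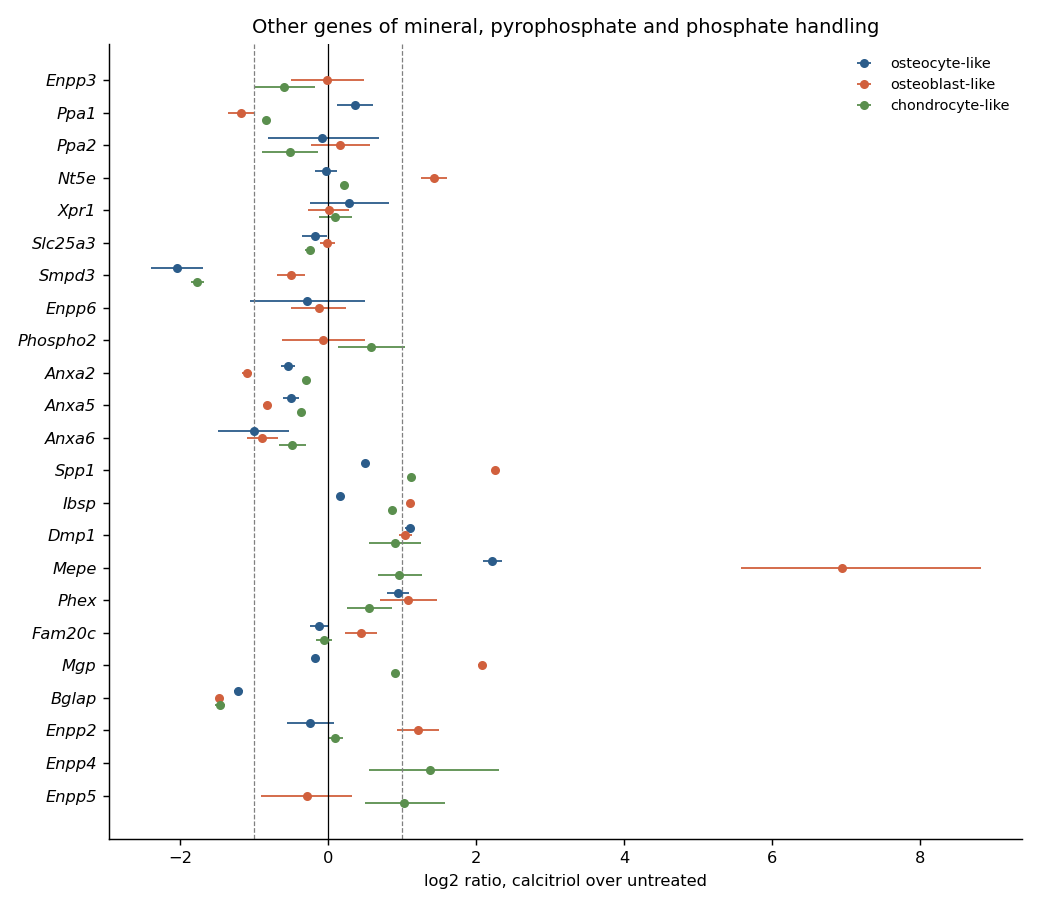
Log2 ratio of calcitriol over untreated (x) with 95% counting intervals for the listed genes with at least 50 UMIs (y) in osteocyte-like (blue), osteoblast-like (orange) and chondrocyte-like (green) cells. Dashed lines mark 2-fold, and Bglap lies left of -1 in all 3 classes.

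Across 26 class and library points, with the libraries of a class sharing their clusters, the genes most like each member by Pearson's r of log2(CPM + 10) among 6094 genes were found. For Alpl they were Ibsp (0.95), Pth1r (0.95) and Col11a1 (0.91). For Enpp1 they were Adk (0.92), Ccn2 (0.91) and Ank (0.89), and for Ank they were Tnfrsf11b (0.91), Ecrg4 (0.90) and Enpp1 (0.89). Enpp1 and Ank were thus among each other's nearest genes. Slc20a1 was most like Ptgs1 (0.92), Proser2 (0.85) and Dab2 (0.82) and Slc20a2 most like Cnot10 (0.87), Ppat (0.86) and Lpin1 (0.84), while Phospho1 was too low to rank.

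In single cells thinned to 2000 UMIs the members met to different extents. Over both libraries, 86 such cells lay in the Mepe-, Dmp1- and Phex-led cluster, and 7 of them had an Alpl UMI. An Ank UMI was in 70, an Enpp1 UMI in 40 and both in 36, against 32.6 if independent. Of 175 cells of the Tnfrsf11b-, Spp1- and Irx5-led cluster 132 had an Alpl UMI, 105 an Ank UMI and 76 both, against 79.2. In mature osteoblast-like cells, 216 in all, an Enpp1 UMI was found in 17 of the 36 cells with an Ank UMI and in 47 of the others. It was found in 24 of the 108 cells with an Alpl UMI and in 40 of the 108 without. Alpl was lower and Enpp1 higher in the calcitriol library, so these pooled counts mix a difference between libraries with one between cells. Within the untreated library 9 cells had both Alpl and Enpp1 UMIs, against 11.963 if independent. Within the calcitriol library 15 cells had both, against 16.6667.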

How the data were processed

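The authors mapped reads to mm10 and counted UMIs with Cell Ranger 4.0.0, and the submitters' processing notes also name Seurat 3.2.2. The deposited values are whole-number counts of UMIs per gene and barcode, not normalized, with 1 library of 6 pooled mice per group. Here barcodes with at least 200 genes were clustered per library in Seurat 5.3.0. Clusters with median mitochondrial share over 10%, under 1000 genes and under 2000 UMIs, all 3 together, were left out. The libraries were integrated (2000 variable genes, 30 components, resolution 0.8), and 156 and 119 cells called as doublets were kept. A class needed at least 3 markers, a rule set after the clusters had been seen. The rule for named genes took the 6 genes over all classes, with some class values only plotted, and of the listed genes those past 2-fold with at least 50 UMIs or with 0 UMIs in all. The members and lists were chosen with earlier results of these data known. Levels have exact Poisson intervals, ratios conditional binomial intervals and shares Clopper-Pearson intervals, and a count of 0 was given its upper limit. The scripts were tested on simulated data. RefSeq promoters were matched by symbol for 5 of 6 members. Cells sharing a library are not replicates.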

Additional observations from a re-analysis of the deposited data

Results flagged for a closer look

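Alpl and Ank stood out because their ratios ran in opposite directions between classes, each past 2-fold. For Alpl the log2 ratio of calcitriol over untreated was 1.95 in tendon-like cells but -1.75 in endothelial-like and -3.56 in fibroblast-like cells. For Ank it was 1.55 in osteocyte-like, 1.25 in osteoblast precursor-like and 1.16 in mature osteoblast-like cells but -1.15 in erythroid-like cells. With 1 library per group these differences between classes were not tested. The Alpl values rest on 122 UMIs or fewer in fibroblast- and endothelial-like cells and on 324 in tendon-like cells. The erythroid-like cells numbered 2308 in the untreated and 434 in the calcitriol library.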

How the results depend on the processing

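No paired analysis was possible because each group was 1 library. The values below are log2 ratios of calcitriol over untreated, and the cause of each shift was not tested unless named. At resolution 1.2, where the osteocyte-like class kept only 92 cells, Alpl was -5.63, Enpp1 1.2, Ank 1.88 and Slc20a1 0.19 in it, and chondrocyte-like cells had 0.031 for Alpl and 0.33 for Enpp1. Without integration osteocyte-like cells had -0.81 for Alpl, 0.56 for Enpp1 and 0.41 for Slc20a1, and chondrocyte-like cells 0.038 for Alpl and 0.32 for Enpp1. With clusters past any single limit left out these were -0.74, 0.56 and 0.37, and 0.075 and 0.36. Thinned to 2000 UMIs, osteocyte-like cells had -0.66 for Alpl, 0.56 for Enpp1, 0.91 for Ank and 0.82 for Slc20a1, osteoblast-like cells -0.90, 1.55, 0.73 and 0.58, and chondrocyte-like cells -0.35 for Alpl, 0.23 for Slc20a1 and -0.34 for Slc20a2. As means of the cells' own CPM, osteocyte-like cells had -0.56 for Alpl, 0.54 for Enpp1 and 1.00 for Ank, osteoblast-like cells -0.96 for Alpl and 0.69 for Slc20a1, and chondrocyte-like cells -0.19 for Alpl, 0.25 for Slc20a1 and 0.43 for Slc20a2. Cells of any cluster with UMIs of at least 2 of Dmp1, Mepe and Phex, taken in place of the osteocyte-like class, had -0.17 for Alpl, 1.85 for Ank and 0.45 for Slc20a1. Within the osteocyte-like cluster the same marker rule gave a larger difference in Alpl, as described above. Ank in chondrocyte-like cells was 0.042 with 20 components, and in osteoblast-like cells 1.09 without cells holding a Mepe UMI, an alternative chosen after seeing the data. At 1.5-fold, 5 of 22 listed genes were lower in osteoblast-like cells, beside 9.36% of all genes. In chondrocyte-like cells 7 of 22 were higher and 4 lower, beside 9.19% and 13.7% of all genes.

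In osteoblast-like cells Enpp1 stayed between 1.24 and 1.55, Alpl between -0.96 and -0.70 and Ank between 0.73 and 1.22 over 12 alternatives each. Alpl changed direction outside bone. In endothelial-like cells it was 0.98 at resolution 1.2 and 0.97 with clusters past any limit left out, on 9 UMIs each, because the Fabp4-led cluster was then not in the class, and -1.75 with that cluster counted, an alternative also chosen after seeing the data. It was -0.93 in tendon-like cells with clusters past any limit left out, and 0.40 in fibroblast-like cells after thinning, on 3 UMIs. Enpp1 in fibroblast-like cells, at 0.31 in the main setting, also changed direction, between -0.33 and 0.36 over 11 alternatives. Phospho1 in every class, and Alpl outside bone and cartilage, had few UMIs.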
